A study of Homo sapiens with 16 samples.

Results

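Windows with zinc finger gene clusters of human chromosome 19 were examined in peak lists from an RNA immunoprecipitation sequencing (RIP-seq) study of PABPC1, the cytoplasmic poly(A)-binding protein. Members were all peaks on chromosome 19 of hg19 whose midpoint fell in 1 of 4 windows. The windows run from 19800000 to 24500000 (W1), 36600000 to 38500000 (W2), 52300000 to 54000000 (W3) and 56000000 to 59100000 (W4), 11.4 Mb in all. They held 826 of the 12131 peaks on chromosome 19 and of the 175749 peaks in the 8 lists. Peaks that overlapped on one strand were merged into regions, which gave 203 member regions among 2365 on the chromosome and 36802 in the genome. Membership was set by position alone, but the windows and measures were chosen with earlier results of these data known.

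KRAB zinc finger genes encode DNA-binding repressors in which a KRAB domain recruits the co-repressor TRIM28 and a row of C2H2 zinc fingers reads the DNA. Many of them bind transposable elements, and the family grew by tandem duplication, so that its members sit side by side in a few clusters, most of them on chromosome 19. Their mRNAs are in general of low abundance and short-lived. PABPC1 coats the poly(A) tail of cytoplasmic mRNAs and takes part in their translation and decay. In the RefSeq table for GRCh38.p14, 264 of 1451 protein-coding genes on chromosome 19 (18.2%) had a symbol starting with ZNF, ZFP, ZSCAN or ZIM, and 212 of them stood in 19 unbroken rows of 5 or more such neighbours. That build differs from the one of the lists, so no peak was assigned to a gene and the windows are known as zinc finger clusters from the choice rule only. The windows can also hold genes of other families, and the rest of the chromosome can hold zinc finger genes and clusters too. Neither was counted, so the contrast is of windows with rest and not of zinc finger genes with others.

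The cells were H1299, a line established from a human lung carcinoma, and stably expressed Myc-tagged PABPC1, and RNA was precipitated through the Myc tag. The tagged protein was wild type (WT) or K512R, and cells were untreated or treated with sodium arsenite at 500 µM (AS), which causes oxidative stress and the assembly of stress granules. Of the 16 samples, 8 had a list, all 8 titled WT in the sample record. The 8 lists make 4 pairs of replicates named A, B, C and D here, and the lists of a pair are numbered 1 and 2. By sample title, A is untreated WT precipitate, B untreated WT input, C arsenite-treated WT precipitate and D arsenite-treated WT input. By the names of the lists, A is untreated WT, B is WT with AS, C is untreated K512R and D is K512R with AS. The readings disagree for 6 lists and were not reconciled, so results are given by letter. The labels do not say that replicates were separate cultures, so p-values measure the spread between these lists, which may be of technical origin. The lists held 19953 to 25111 peaks each, and read depth is unknown.

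The windows held few peaks for their length. Member peaks numbered 95 and 102 in pair A, 91 and 93 in pair B, 110 and 116 in pair C, and 101 and 118 in pair D. List D2 was highest and B1 lowest, and pair D overlapped A and C. Per megabase this came to 9.06 ± 0.911 peaks (SD, n = 8 lists) in the windows, against 29.8 ± 4.47 in the rest of chromosome 19. The ratio of both densities lay between 0.258 and 0.395 over the 8 lists, with a mean of 0.308 ± 0.0456. The windows make up 19.4% of the length between the chromosome's first and last peak, and held 6.89% ± 0.942 of its peaks. Both measures were lower than an even spread would give in 8 of 8 lists (adjusted p = 0.00977, exact 2-sided sign-change permutation test, Benjamini-Hochberg over 5 measures; the unadjusted p of 0.00781 is the smallest that 8 lists can give). With the lengths fixed, the ratio follows from the share, so these are not separate results, though both counted among the 5 measures. The 8 lists were taken as independent in this test. With the 4 pairs as units the smallest possible p is 0.125, and no measure could pass. Gene number per megabase was not available for this build, so whether the windows have fewer peaks per gene was not tested.

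The 4 windows were unlike each other in density. W1 was the sparsest, with 10 to 19 peaks per list and 3.24 ± 0.631 peaks per megabase (SD, n = 8). W2 had 13 to 22 peaks per list and 9.08 ± 1.34 per megabase. W3 had 18 to 30 peaks per list and 13.1 ± 2.22 per megabase. W4 had 37 to 61 peaks per list and 15.6 ± 2.996 per megabase, so it too lay under the 25.2 to 35.9 of the rest in all 8 lists. Of the 0.1 Mb steps of W1, 30 of 47 held no region, against 2 of 19 in W2, 4 of 17 in W3 and 8 of 31 in W4. Beyond the last member peak of W1, which lies at 24269962 to 24270139, the chromosome had no peak in any list for 5.43 Mb.

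**Figure D1:**
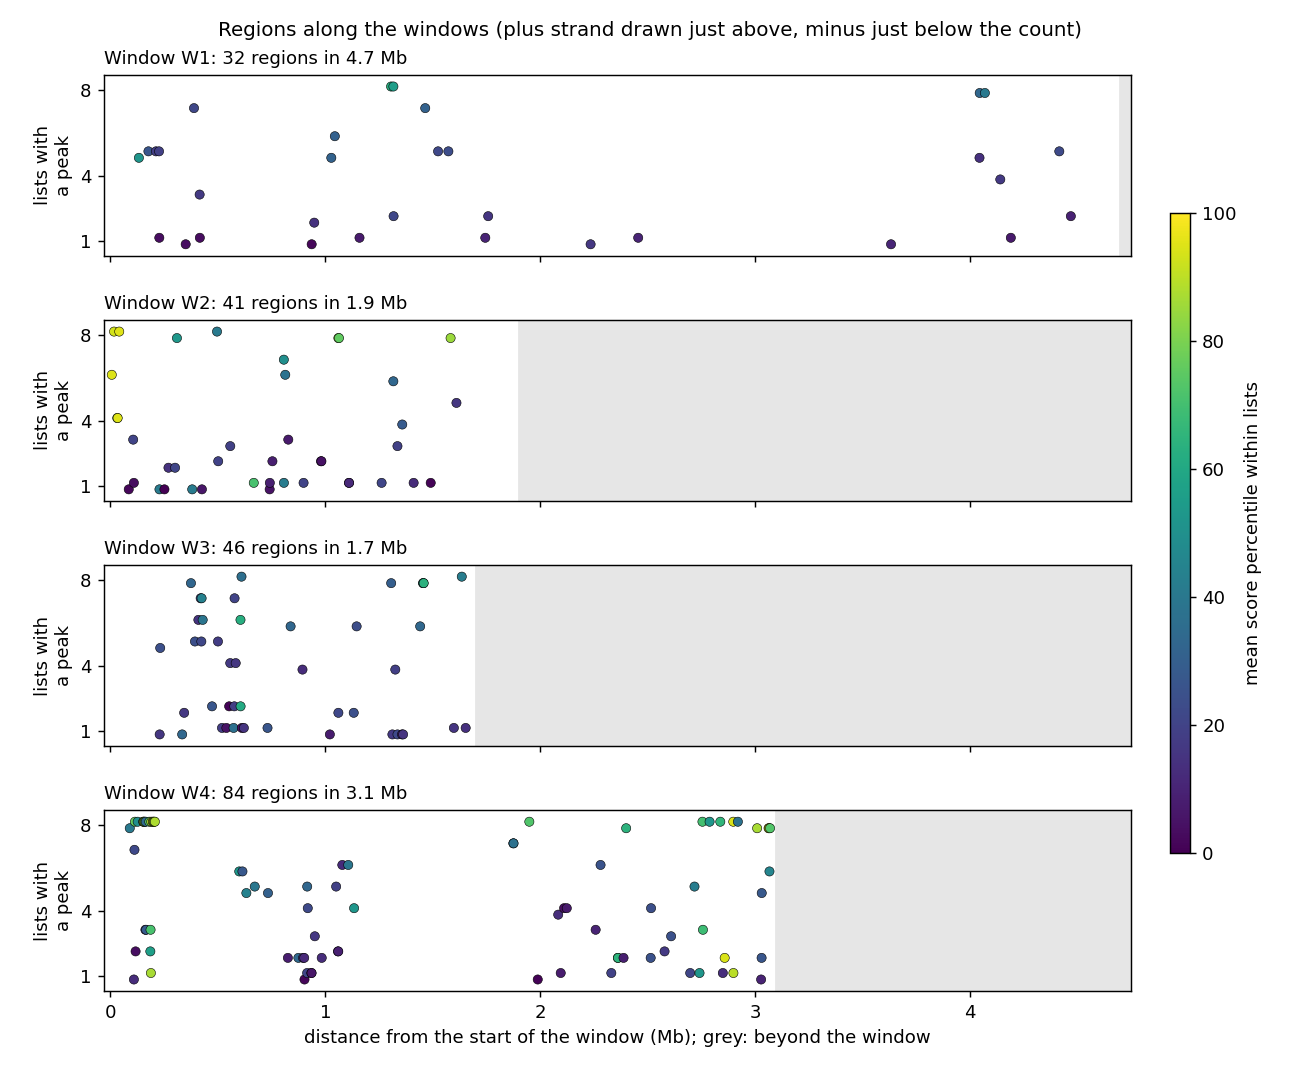
Each point is 1 of the 203 member regions, placed by its distance from the start of its window (Mb, x axis) and by the number of lists with a peak in it (y axis), with one panel per window. Colour gives the mean score percentile within the lists. Regions are sparse and of low score in W1, and the group of 8-list regions at the left edge of W4 lies within its first 0.3 Mb.

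Member peaks scored low within their lists. The score comes from the authors' peak caller and was used only as a percentile among all peaks of its own list, where 100 is best. The median percentile of member peaks was 46.6 and 42.2 in A, 37.0 and 43.3 in B, 34.6 and 42.1 in C, and 39.0 and 30.4 in D. Every list was thus below its own middle in the windows, and the rest of the chromosome was above it, at 57.3 to 60.6. The difference was 20.1 ± 5.17 percentile points (SD, n = 8), lower in the windows in 8 of 8 lists (adjusted p = 0.00977, same exact test). Scores of 3100 or more, the top of the scale shared by many peaks, were reached by 7.53% to 12.6% of member peaks and 14.97% to 18.5% of the others. By window, the median percentile was 18.3 to 34.2 in W1, 22.0 to 36.4 in W3, 32.6 to 68.1 in W2 and 38.8 to 64.1 in W4. W1 and W3 were thus low in every list, while W4 was above the list middle in 6 of 8 lists and above the rest of the chromosome in A2, B1, B2 and D1. None of the peaks of W1 or W3 reached a score of 3100 in any list, while 12.5% to 29.4% of those of W2 and 10.3% to 19.6% of those of W4 did. In W2 such peaks all lay between 36605888 and 36641251, near the start of the window, except for a peak at 37660741 in list B1.

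Width set W4 apart from the other windows. The median width of all member peaks was 278 and 249.5 bp in A, 267 and 249 bp in B, 270 and 251 bp in C, and 267 and 242.5 bp in D, and it was 217 to 227 bp in the rest of the chromosome. Over the 8 lists the members were wider by 35.8 ± 13.3 bp (SD; adjusted p = 0.00977, exact sign-change test), but this difference rested on W4. Without W4 the members of W1 to W3 were narrower than the rest in 8 of 8 lists, by 42.8 bp on average (value -42.8 bp, adjusted p = 0.00781, exact sign-change test). Median widths were 146.5 to 182 bp in W1, 187 to 281 bp in W2, 155 to 191 bp in W3 and 347 to 476 bp in W4. Peaks over 1000 bp numbered 0 in W1, 1 in W2 and 1 in W3 over all lists together, and 6 to 11 per list in W4. Their share in all windows was 0.877 ± 0.973 percentage points under that of the rest (SD, n = 8; adjusted p = 0.0469, exact sign-change test, lower in 7 of 8 lists). That small difference was called with list A1 left out and not with any of the other 7 lists left out. Without W1, W2 or W3 the sign turned, to 0.470, 0.540 and 1.14 points (adjusted p = 0.258, 0.133 and 0.0391, exact sign-change test). The turned difference thus passed 0.05 without W3. Without W4 the difference was far larger, at -8.36 points (adjusted p = 0.00781, exact sign-change test), and with the windows shortened by 0.2 Mb at both ends it was -4.73 points (adjusted p = 0.00977, same exact test).

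The greater width of member peaks lay at the margins of the windows, a split made after the values had been seen. In score the margins went against the contrast with the rest. The outer 0.2 Mb on either side of the 4 windows held 221 of the 826 member peaks, with a median width of 518 bp and a median percentile of 71.5. The inner parts held 605 peaks, with medians of 213 bp and 31.0. Most of the marginal peaks, 166, were in W4, and 112 of these in its first 0.2 Mb, where 39 of the 66 member peaks over 1000 bp were found. With every window shortened by 0.2 Mb at both ends, the median width turned to 19.6 bp narrower than the rest (value -19.6 bp, adjusted p = 0.0469, exact sign-change test). The density ratio then was 0.266, against 0.308 with whole windows, and the percentile difference -27.0 points, against -20.1. Low density and low score thus became more marked, and both held in 8 of 8 lists.

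Member regions tended to stand alone. Regions of one strand were chained into runs where the gap was 10000 bp or less, as a stand-in for transcripts. The 203 member regions made 139 runs, of which 103 (74.1%) had a single region and 3 (2.16%) had 5 or more. In the rest of the chromosome 331 of 783 runs (42.3%) had a single region and 127 (16.2%) had 5 or more. With a fixed gap, sparser regions give shorter runs, so this is not separate from the low density of the windows. Whether runs were shorter than that density gives was not tested. The longest runs in W4 were on the plus strand, with 9 regions from 56180810 to 56207133, 6 of them in all 8 lists, and 7 regions from 56152351 to 56166519, 5 of them in all 8 lists. Both start in the first 0.2 Mb of W4. The run with most regions in W3 had 5, from 52905200 to 52921419 on the plus strand, and in W2 it had 3, from 36631510 to 36641251 on the plus strand. No run in W1 had more than 2 regions. Of member peaks 56.4% to 67.0% were on the plus strand, and of the rest of the chromosome 49.8% to 51.5%. W4 was at 61.7% to 73.0%, and W1 to W3 together at 43.9% to 63.0%, so outside W4 the plus strand did not prevail in every list. No member region overlapped a member region of the other strand.

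Presence over the 8 lists was compared next. Of the 203 member regions 43 (21.2%, 95% Wilson interval 16.1 to 27.3) had a peak in all 8 lists, and of the 2162 others on the chromosome 795 (36.8%, 34.8 to 38.8). Regions in 1 list alone were 55 (27.1%, 21.4 to 33.6) against 302 (13.97%, 12.6 to 15.5). These intervals cover counting error only, and regions of one gene are not independent. W1 to W3 had 18 of 119 regions (15.1%) in all 8 lists and 41 (34.5%) in a single one. W4 stood closer to the rest, with 25 of 84 (29.8%) in all 8 and 14 (16.7%) in 1. The shares over all regions of the genome were 29.5% in all 8 and 17.2% in 1.

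**Figure D2:**
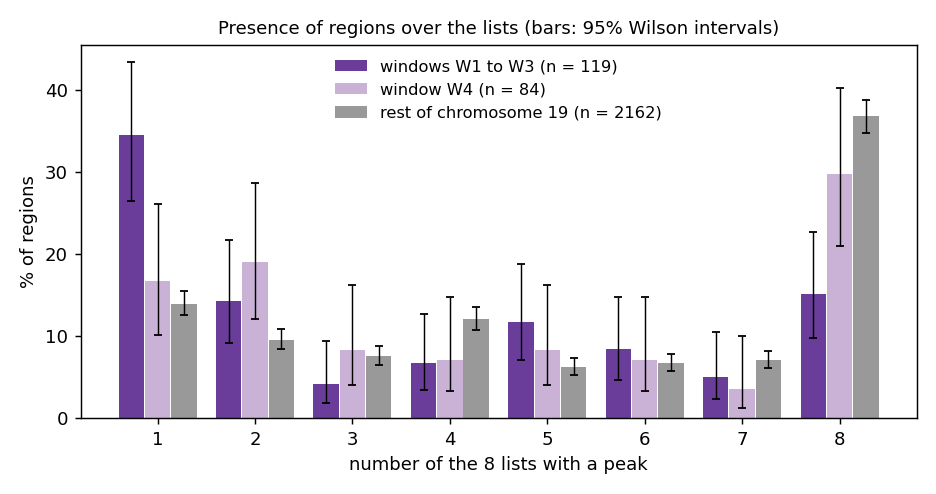
Share of regions (%, y axis) by the number of the 8 lists with a peak (x axis) for windows W1 to W3, for W4 and for the rest of chromosome 19; bars on the columns are 95% Wilson intervals. In W1 to W3 the column for 1 list is the highest, at 34.5%, and in the rest the column for 8 lists, at 36.8%.

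Presence was then set beside score. Regions of chromosome 19 were put into 3 classes of equal size by their mean percentile over the lists that held them. The lowest class took 54.2% of member regions and 31.4% of the others. Within the highest class, 27 of 39 member regions (69.2%) and 529 of 750 others (70.5%) were in all 8 lists. In the middle class the shares were 15 of 54 (27.8%) and 253 of 734 (34.5%), and in the lowest 1 of 110 and 13 of 678. Regions in a single list made up 40.9% of members against 33.6% of others in the lowest class, and 12.96% against 6.68% in the middle one. These shares are descriptions without a test.

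The likeness of lists was lower within the windows. The Jaccard index, the share of regions that 2 lists have in common, averaged 0.612 over the 4 replicate pairs (0.543 to 0.673) for member regions and 0.768 (0.745 to 0.782) for the rest. Lists of different pairs on the same side (A with C, B with D) had 0.558 for members and 0.731 for the rest. Lists across the sides had 0.502 and 0.603. Here A and C are one side and B and D the other. Whether the drop between sides differs between windows and rest was not tested. Where 2 lists each had a single peak in a member region, both ends were identical in 63.2% to 81.1% of 57 to 83 regions, against 82.1% to 88.8% in the rest.

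The number of peaks differed little between the sides in the windows and more in the rest of the chromosome. Across the sides, the rest of chromosome 19 had 1532, 1545, 1639 and 1702 peaks in the lists of A and C and 1196, 1252, 1196 and 1243 in those of B and D, with no overlap. The mean there was 1604.5 ± 80.6 against 1222 ± 30.0 (SD, n = 4 each), a change of -23.9% (p = 0.0286, adjusted p = 0.152 over 16 tests, exact permutation). In the windows it was 106 ± 9.18 against 101 ± 12.3, a change of -4.73%, and the lists overlapped (p = 0.514, adjusted p = 0.633, exact 2-sided permutation test of 4 lists against 4). These numbers are not corrected for list length. As a share of its whole list, the rest held 6.88% ± 0.119 in A and C and 5.93% ± 0.0446 in B and D, without overlap (p = 0.0286, adjusted p = 0.152, same permutation test). The windows held 0.453% ± 0.0141 and 0.489% ± 0.0573, with overlap (p = 0.343, adjusted p = 0.457, same permutation test). The windows' share of chromosome 19 peaks was 5.84%, 6.19%, 6.29% and 6.38% in A and C and 7.07%, 6.91%, 7.79% and 8.67% in B and D. Every list of B and D was above every list of A and C, by 1.44 percentage points on average. The exact permutation p was 0.0286, the smallest that 4 lists against 4 can give, and 0.143 after Benjamini-Hochberg adjustment over 10 tests, so the difference did not pass 0.05. These 10 tests include the density ratio, which follows from the share. By the titles this sets input against precipitate, and by the list names AS against no treatment.

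**Figure D3:**
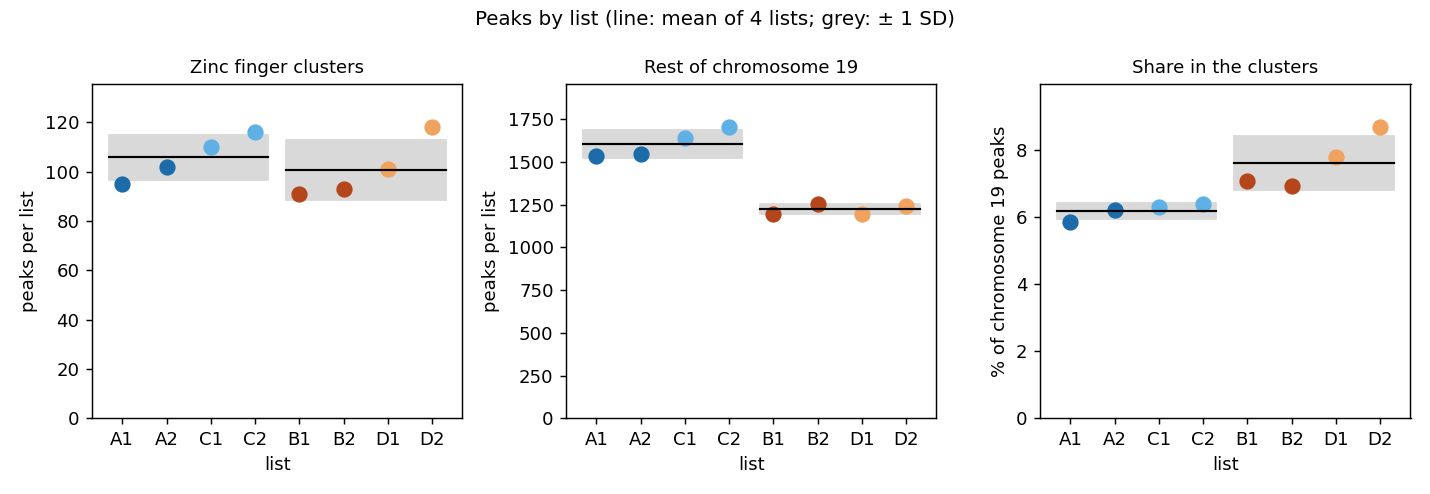
Number of peaks per list in the zinc finger clusters (left) and in the rest of chromosome 19 (middle), and the clusters' share of chromosome 19 peaks in % (right); points are lists, lines are means of 4 lists and grey bands ± 1 SD. The lists of A and C and those of B and D are apart in the middle and right panels and overlap in the left one.

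The means of single windows differed in direction. From A and C to B and D the mean number of peaks went from 13.5 ± 2.52 to 17.0 ± 2.45 in W1, from 15.75 ± 1.89 to 18.75 ± 2.36 in W2 and from 21 ± 2.94 to 23.5 ± 4.51 in W3 (SD, n = 4 each). In W4 it went from 55.5 ± 7.14 to 41.5 ± 4.43. W1 to W3 together changed by +17.9% and W4 by -25.2%, close to the -23.9% of the rest. List by list, W1 to W3 had 41 and 56 peaks in A, 49 and 55 in C, 54 and 54 in B, and 58 and 71 in D, so the sides overlapped. As a share of all peaks of a list, W1 to W3 held 0.215% ± 0.0287 in A and C and 0.288% ± 0.0371 in B and D, without overlap (p = 0.0286, exact permutation test, adjusted p = 0.152 over the same 16 tests, which were picked once the lists had been examined). W4 held 0.237% ± 0.0197 and 0.202% ± 0.0214, with overlap (p = 0.0857, exact permutation test, adjusted p = 0.196). None of the 16 passed after adjustment. By the other layout, A and B against C and D, the windows held 95.25 ± 4.79 and 111 ± 7.63 peaks (p = 0.0571, exact permutation test, adjusted p = 0.152), and the share of chromosome 19 peaks differed by 0.777 points (p = 0.286, adjusted p = 0.408).

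In B against A (by title input against precipitate of untreated WT, by list name AS against none in WT), 13 member regions were lost and 13 were gained. A region counts as lost where it had a peak in both lists of the starting pair and in neither of the other, and as gained in the reverse case; no test was made, since an exact permutation test of 2 lists against 2 cannot reach 0.05. Over all 36802 regions 9.63% were lost and 8.21% gained by this rule. The members stood at 6.40% in both directions, under the background, and the rest of chromosome 19 at 12.1% lost (261) and 2.41% gained (52). W1 to W3 had 5 lost and 12 gained, and W4 had 8 lost and 1 gained. Relative to the regions that both lists of A held, 13 of 69 members (18.8%) and 261 of 1331 others (19.6%) were lost, and the gained ones were 13 of 74 (17.6%) against 52 of 1038 (5.01%) of the regions both lists of B held. Over all regions of the genome these shares were 19.1% lost and 17.1% gained. By this measure the members were near the genome in both directions, and the rest of chromosome 19 was low in gained regions. With 1 of the 4 lists left out, 16 to 31 members met the lost rule and 15 to 24 the gained one.

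The lost region with the best score was at 56598732 to 56600461 on the minus strand in W4, with percentiles of 62.6 and 75.7 in A, 85.9 and 82.9 in C, no peak in B, and 6.31 and 7.52 in D. It was thus strong in A and C and near the bottom in D. At 57132636 to 57135336 on the plus strand of W4, 2701 bp wide, the percentiles were 62.0 and 51.4 in A and 52.8 and 44.0 in C, with no peak in B or D. The best gained region was at 36633554 to 36633643 on the plus strand of W2, with 94.8 and 95.3 in B, 94.7 and 94.3 in D, and no peak in A or C. Its neighbour at 36631510 to 36631815 had 81.1 and 85.7 in B and 72.3 and 78.6 in D, again with none in A or C.

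In D against C (by title input against precipitate with AS, by list name AS against none in K512R), 14 member regions were lost and 10 gained. The background was 14.4% lost and 6.26% gained over all regions. Members stood at 6.90% and 4.93%, and the rest of the chromosome at 17.4% lost (376) and 2.27% gained (49). With every list limited to as many best-scoring peaks as the shortest holds, the order turned in the windows, to 9 lost and 16 gained, and not in the rest (250 lost, 81 gained). Over all regions of the genome the counts also drew together, from 5295 lost and 2303 gained to 3502 and 3247. A shift towards gained regions was thus not particular to the windows. With 1 of the 4 lists left out, 18 to 29 members met the lost rule and 15 to 31 the gained one. W1 to W3 together had 3 lost and 7 gained, and W4 had 11 lost and 3 gained. The pooled order came mainly from W2, with 1 lost and 5 gained. W1 had 0 lost and 1 gained, while W3 had 2 lost and 1 gained and so went the other way. Of the regions both lists of C held, 14 of 85 members (16.5%) and 376 of 1459 others (25.8%) were lost. Over all regions of the genome this share was 25.3%. Among those under the list median of score the lost share was 11 of 44 (25.0%) for members and 249 of 509 (48.9%) for others, and at or over the median 3 of 41 (7.32%) and 127 of 950 (13.4%). In B against A the same split gave 35.5% against 41.4% under the median and 5.26% against 7.77% over it.

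The best-scoring regions lost in D against C were at 56632541 to 56632649 (minus strand, W4), with 58.4 and 56.8 in C, and at 53138319 to 53138671 (minus strand, W3), with 55.9 and 50.9 in C. The first had 45.4 and 52.9 in A and 7.91 in list B2, and the second 44.5 and 30.6 in A and 0.4998 and 15.6 in B, so both ranked lower in B where they had a peak. A region at 56185300 to 56186082 (plus strand, W4) had a peak in C alone, at 48.2 and 64.0, but lies 478 bp from a region of the same strand with peaks in A1, B2 and D1. Gained in D against C were 58858719 to 58859006 (minus strand, W4), at 94.7 and 94.3 in D and in no other list, and 58361684 to 58361929 (minus strand, W4), at 78.3 and 78.3 in D and in no other list. The latter lies 117 bp from a same-strand region with peaks in B2 and C2. With peaks joined also at gaps of up to 500 bp, a setting added after the data were seen, these neighbours merge, and 13 members were lost and 9 gained. The former stood among the tied top scores of both D lists.

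In C against A (by title AS against none in WT precipitates, by list name K512R against WT, untreated), 2 member regions were lost and 11 gained, where 1.62% and 4.97% of all regions were. As shares of all member regions these were 0.985% and 5.42%, near the background, and in the rest of the chromosome 1.71% and 4.72%. Of the regions both lists of C held, 11 of 85 members (12.9%) were gained, against 8.75% over all regions and 6.99% in the rest. Of the regions both lists of A held, 2.90% of members were lost, against 3.23% and 2.78%. At equal list length 4 members were lost and 6 gained, and with 1 list left out 6 to 15 and 18 to 26. The 2 lost regions were at 36705504 to 36706098 (plus strand, W2), with 26.3 and 26.2 in A, and at 53360825 to 53360902 (minus strand, W3), with 27.5 and 16.2 in A. The best gained one was at 19932410 to 19932560 (minus strand, W1), with 54.5 and 55.4 in C, 57.1 and 59.6 in B, 34.5 in list D1 and no peak in A or D2. It is also the first member peak of W1.

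In D against B (by title AS against none in WT inputs, by list name K512R against WT, with AS), 4 member regions were lost and 14 gained, against 3.77% and 2.96% of all regions. The members' gained share of 6.90% was above that background, and the rest of the chromosome stood at 2.17%. Of the regions both lists of D held, 14 of 83 members (16.9%) were gained, against 6.30% over all regions and 4.45% in the rest. Of the regions both lists of B held, 5.41% of members were lost, against 7.86% and 5.78%. At equal list length 2 members were lost and 15 gained, and with 1 list left out 7 to 12 and 18 to 33. Of the 14, W4 held 8, among them the region at 58858719 described above and one at 58757667 to 58757793 (plus strand), with 67.6 and 67.3 in D and 70.8 in list C1. The lost ones included 56670993 to 56672262 (plus strand, W4), with 12.2 and 43.3 in B and no peak in D, and 36870065 to 36870105 (minus strand, W2), 41 bp wide and found in B alone at 18.4 and 10.5. B against A and C against A share the lists of A, and D against C and D against B share those of D, so the counts are not independent of each other.

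**Figure D4:**
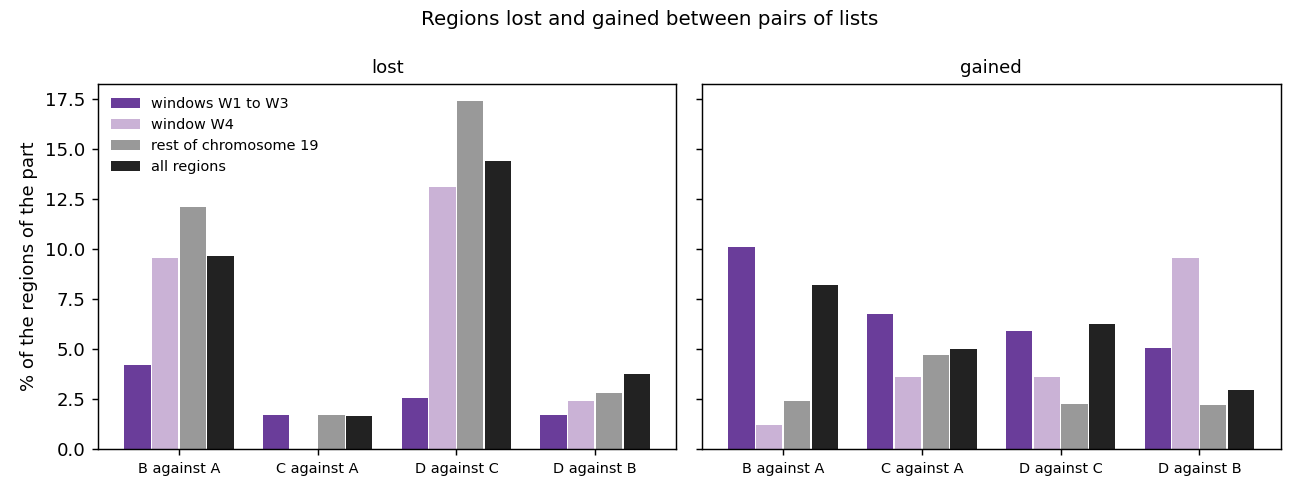
Share of regions (%, y axis) lost (left) and gained (right) in each comparison of pairs, for windows W1 to W3, W4, the rest of chromosome 19 and all regions of the genome. In B against A and D against C the lost share is 4.20% and 2.52% in W1 to W3, and 12.1% and 17.4% in the rest.

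Few member regions followed the sides without exception. Only 2 (0.985%) had a peak in each list of A and C but none in B or D, where 5.09% of all regions and 7.03% of the rest of the chromosome did. They were the region at 57132636 and one at 56918395 to 56918492 (plus strand), both in W4. The reverse held for 3 (1.48%), where 3.01% of all regions and 0.694% of the rest did. Besides the pair at 36631510 and 36633554 in W2, this was 52882674 to 52883328 (plus strand, W3), with 41.1 and 19.6 in B and 0.724 and 2.24 in D. No member was found in all of A and B alone, and 1 in all of C and D alone.

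The number of members with a peak was counted by list in 2 stretches, which were picked after their values had been seen and carry no test. Between 56.5 and 57.2 Mb, in W4, 23 regions were found, and 18 and 9 of them had a peak in A, 14 and 14 in C, 4 and 5 in B, and 6 and 8 in D. All lists of A and C were above those of B and D there, and none of the 23 was in all 8 lists. Between 52.6 and 53 Mb, in W3, 5 and 9 of 24 regions had a peak in A, 8 and 13 in C, 16 and 13 in B, and 12 and 18 in D. List A1 was lowest there and D2 highest, and the sides overlapped. Within it, the run of 4 regions from 52719782 to 52729654 on the plus strand had 0 and 2 regions with a peak in A, 4 and 4 in B, 3 and 4 in C, and 4 and 4 in D.

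**Figure D5:**
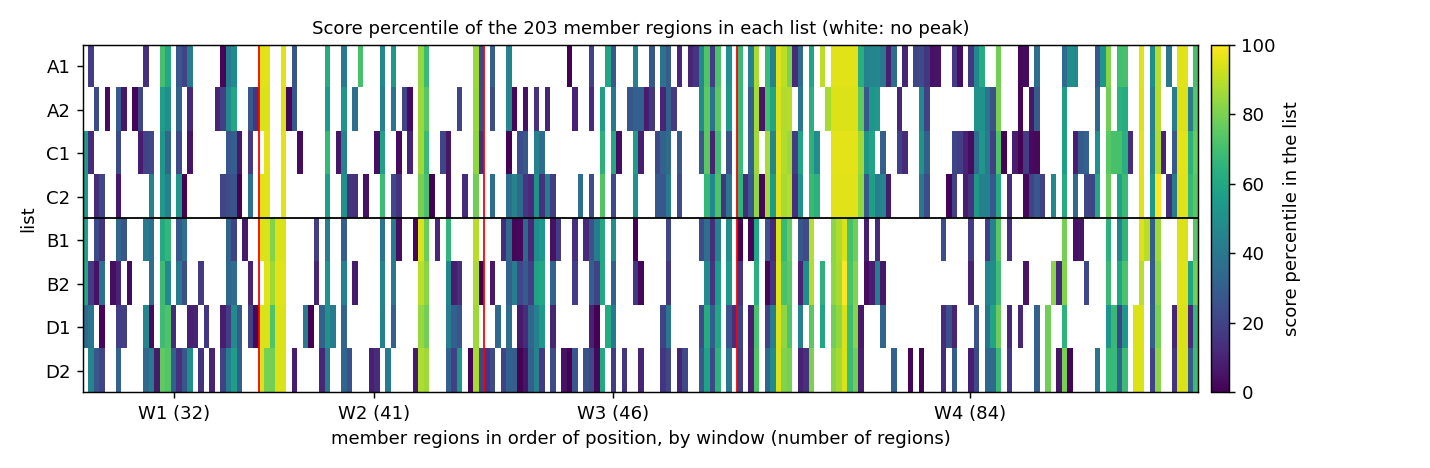
Score percentile (colour) of each of the 203 member regions (columns, in order of position, red lines between windows) in each of the 8 lists (rows, black line between A and C above and B and D below); white means no peak. Columns filled from top to bottom are the 43 regions in all lists, and the stretch in W4 with 23 regions is mostly white in the lower rows.

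The strongest shared members were in W2 and W4, most of them near the bounds of these windows. In W2 the region at 36640480 to 36641251 (plus strand, 772 bp) had a percentile of 94.3 to 95.7 in all 8 lists, and 36616570 to 36616850 (plus strand) the same in 7 lists and 79.4 in D2. At 37660741 to 37660956 (minus strand, W2) the range was 79.6 to 94.8. In W4 the regions at 56200236 to 56200360 (plus strand), 56153418 to 56154836 (plus strand, 1419 bp) and 59065412 to 59066005 (minus strand) were at 94.3 or more in every list. Besides the regions at 36616570 (list D2) and 37660741 (7 lists), these scored 3100 or more in each list, so their order within the tied scores has no meaning. All but those at 37660741 and 56200236 lay in the window margins described above, and 56200236 lay just past the margin at the start of W4. Peaks in the margins had a median percentile of 94.8 in W2 and 70.9 in W4, against 41.0 and 43.9 in the inner parts. Whether these regions belong to zinc finger genes was not tested.

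The best shared members of W1 and W3 ranked lower. In W1 the region at 21106028 to 21106209 (plus strand, 182 bp) had 70.6 and 56.1 in A, 61.0 and 68.7 in B, 52.9 and 53.2 in C, and 68.9 and 75.4 in D. Both lists of C were below the other 6. In W3 the region at 53757852 to 53758084 (minus strand) had 71.8 and 74.7 in A, 43.7 and 55.0 in B, 68.9 and 72.1 in C, and 59.7 and 65.2 in D, so that all lists of A and C were above those of B and D. Its neighbour at 53754789 to 53754858 had 72.7 and 74.7 in A, 74.8 and 66.1 in C, 37.0 and 48.5 in B, and 61.7 and 58.1 in D, with the same order. These 2 and another region between them form a run in which every list had all 3.

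The widest shared member differed in covered length and score and not in presence. At 56124959 to 56128660 (plus strand, W4, 3702 bp) the peaks covered 3570 and 3614 bp in A, 3702 and 3625 bp in C, 771 and 1066 bp in B, and 1015 and 1672 bp in D. The percentiles were 67.6 and 70.9 in A, 87.2 and 86.9 in C, 25.6 and 1.84 in B, and 19.8 and 33.2 in D. The sides did not overlap in either value. A rule of presence and absence counts this region as unchanged in all 4 comparisons.

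The bounds of the windows did not always fall in empty stretches. At the start of W2 the region at 36605888 to 36606576 (6 lists, mean percentile 94.9) was just inside and 36594245 to 36594883 (3 lists, 85.1) just outside. At the start of W4 the nearest region inside was 56088891 to 56091007 (8 lists, 40.4) and the nearest outside 55997028 to 55998935 (8 lists, 54.4), whose peak midpoint lay 1.40 kb before the bound. At the end of W3 the last region inside, 53953186 to 53953484, and the first outside, 54025871 to 54025938, were each in 1 list. At the start of W3 the first member lay 229 kb inside, and the nearest peak outside 429 kb away.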

How the data were processed

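RIP-seq peak lists of 8 samples were used, grouped by sample title, with replicate numbers from the titles. The authors deposited for each of them a position, a strand and a score for every peak. Peak names begin with MACS, a peak caller, and the submitters' processing notes name cutadapt 1.9.3, HISAT2 2.0.4 and hg19; the caller's version, control and threshold were not given in the sources used here. The unit of the deposited score is not stated (13.02 to 3233.06), so it served only for ranks within a list. Positions are hg19, counted from 1. No 2 lists were identical.

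Peaks of all lists that overlapped by at least 1 bp on one strand were joined. A region is a member by its midpoint, as is a peak, and every member peak lay in a member region. Member against other peaks were compared within lists by exact sign changes, and 4 lists against 4 by exact permutation (70 orders), with Benjamini-Hochberg adjustment. Joining, the lost and gained rule and the permutation test were tested on simulated data, and the sign-change test on 8 equal values. The simulated regions lay far apart, so the joining of close neighbours was not tested. Alternatives were equal list length, a score of at least 50, an overlap of 50%, shortened windows, and leaving out windows or lists. The members, windows and measures were chosen with earlier results of these data known. Regions named are, per window, the 3 best-scoring and the widest in all 8 lists, per comparison up to 4 lost and 4 gained by the poorer of the 2 percentiles, up to 5 per side for regions that follow the sides, the run with most regions, and the peaks next to each bound; the region at 53754789 and its run fall under the first rule, and other runs and the 2 stretches were chosen after their values were seen. The tools were scipy 1.17.1, matplotlib 3.10.9, pandas 2.3.3 and numpy 2.4.6 under Python 3.11.15. Precision is limited by the number of lists, since read depth is unknown.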

Additional observations from a re-analysis of the deposited data

Results flagged for a closer look

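In W4 the median peak width of list A1 was 347 bp, apart from the other lists of A and C, which were at 402 to 411 bp. The gap to the nearest list was 0.859 of the range of the 4 lists, above Dixon's 95% bound for 4 values. Of 46 sets of 4 lists looked at in this way, 1 was singled out, while chance alone singles out about 1 in 20.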

How the results depend on the processing

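Low density and low score of member peaks held in direction and call under every alternative run on the 8 lists (equal list length, a score of at least 50, shortened windows, each window or list left out). The low share, which is not a result separate from the low density, held too. With pairs as units, added after the data were seen, the values were the same and could not pass: share 6.89%, density ratio 0.308, width 35.8 bp, percentile -20.1 (exact p = 0.125 each, the smallest possible) and peaks over 1000 bp -0.877 points (exact p = 0.25). The width difference turned to -19.6 bp with shortened windows and to -42.8 bp without W4. The difference in peaks over 1000 bp was -0.781 points at equal list length, -0.683 at a score of at least 50, 0.470, 0.540, 1.14 and -8.36 without W1, W2, W3 and W4, -4.73 with shortened windows, and -1.15 to -0.694 with 1 list left out. The difference in the share of regions in all 8 lists, -15.6 points, became -22.1 with shortened windows and -21.6 without W4. Uncalled contrasts of 4 lists against 4 changed sign with 1 list left out: width, A and B against C and D, -5.58 to 6.04 bp, and percentile, A and C against B and D, -4.71 to 0.252 points. The cause was not tested.

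Joining peaks also at gaps of up to 500 bp, added after the data were seen, moved no lost or gained count by more than 1. At equal list length 4 members were lost and 6 gained in C against A, 9 lost and 16 gained in D against C, and 2 lost in D against B. Over all regions the lost and gained counts then were 939 and 988 in C against A, 3502 and 3247 in D against C, and 1315 and 1167 in D against B. With 1 list left out, which eases the rule by construction, lost and gained counts were 16 to 31 and 15 to 24 in B against A, 6 to 15 and 18 to 26 in C against A, 18 to 29 and 15 to 31 in D against C, and 7 to 12 and 18 to 33 in D against B.

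In presence of regions on chromosome 19, lists with the same replicate number hardly deviated together from their pair means (correlations of 0.000502 to 0.032 over 2365 regions). This check covers presence only. It cannot decide whether the number marks a shared batch in peak number, width or score. With the replicate number as a block the share differed by the same 1.44 points between A with C and B with D (exact sign-change p = 0.125, the smallest possible). No contrast between these sides was called without the block and none could be called with it, so the block cannot show whether calls depend on the number.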

Other observations

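Regions found in 1 list alone were spread differently over the lists in the windows and outside. In the rest of chromosome 19 the lists of C held 63 and 80 of the 302 such regions, and those of D 19 and 24. In the windows the lists of C held 8 and 8 of 55, those of D 7 and 10, those of A 7 and 9, and those of B 4 and 2. Among regions in exactly 2 lists, both lists of C made up the 2 in 66 of 207 outside and in 3 of 33 within the windows. The difference was not tested. Member regions in 1 list had a median width of 178 bp and those in all 8 lists 304 bp, against 176 and 234 bp in the rest.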
